A study of Homo sapiens and Mus musculus with 24 samples.

Results

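The 9 genes described here make, sense and break down prostaglandins, and their RNA was followed in MCF10A cells with and without an activated PI3K alpha. They were taken by gene symbol out of 56981 symbols in the deposited tables: the cyclooxygenases PTGS1 and PTGS2, the prostaglandin E synthases PTGES, PTGES2 and PTGES3, the receptors PTGFR, PTGER2 and PTGER4, and the dehydrogenase HPGD. The set was chosen by CPM compared between the groups, with the higher PTGFR of knock-in cells already known, so every difference between knock-in and parental cells is given for these genes as a description, with no test. The response to the inhibitor within each line, and the difference of that response between lines, are tested in a fit across all genes. The choice set all 4 groups side by side with results known, so these tests are not shown to be independent of it.

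MCF10A is a human mammary epithelial line that does not form tumours. KI cells carry PIK3CA H1047R, which activates the catalytic subunit of PI3K alpha, as a heterozygous knock-in, and parental cells are the matching wild type line from the same supplier. The 4 groups of 3 libraries each were KI cells given alpelisib (BYL719, a PI3K alpha inhibitor, at 1 uM), KI cells given the solvent DMSO, parental cells given BYL719 at 1 uM, and parental cells given DMSO, all for 4 h. If each line is 1 clone, clone and genotype cannot be told apart, and no source used here says whether the 3 libraries of a group were separate cultures, so p-values measure only the spread between these libraries, which may be technical. The 12 mouse embryonic fibroblast libraries of the same study were not analysed here.

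Prostaglandin synthesis starts when phospholipases free arachidonic acid from membranes. The cyclooxygenases turn it into the unstable intermediate PGH2, from which terminal synthases make PGE2, PGF2alpha, PGD2, prostacyclin or thromboxane. In epithelia PGE2 acts mostly through the receptors EP2 and EP4, which raise cyclic AMP through Gs, whereas PGF2alpha acts through the FP receptor, which couples to Gq and phospholipase C. HPGD inactivates both by oxidation, and its loss together with a gain of PTGS2 is a known route to high PGE2 in epithelial tumours.

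Upstream sequences of 3 members are shown because they stand for the 3 behaviours described below: PTGFR, which rose under BYL719 in KI cells, PTGES, which fell, and PTGS2, for which neither was called. RefSeq (GRCh38.p14) gave a start site for 9 of 9 members. The bases before the start are printed 5′ to 3′ on the gene's strand, up to 250, less those that lie in an annotated untranslated or coding exon, and the windows of HPGD and PTGER4, which lie wholly in such exons, are not printed. Capitals mark matches on either strand to the motifs searched: FOXO (GTAAACA), AP-1 (TGANTCA), CRE (TGACGTCA), a CRE variant (TTCGTCA), NF-kB, E-box (CACGTG), GC box (GGGCGG, added after the windows had been seen) and, for the TATA box, the letters TATAAA. No 2 matches overlap in these 3 windows.
PTGFR, chr1:78490724-78490973, plus strand: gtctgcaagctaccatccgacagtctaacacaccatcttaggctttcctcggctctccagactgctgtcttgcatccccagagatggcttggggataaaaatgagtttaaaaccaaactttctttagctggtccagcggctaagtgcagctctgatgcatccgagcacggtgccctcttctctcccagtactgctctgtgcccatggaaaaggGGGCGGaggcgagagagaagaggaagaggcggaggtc
PTGS2, chr1:186680428-186680673, minus strand: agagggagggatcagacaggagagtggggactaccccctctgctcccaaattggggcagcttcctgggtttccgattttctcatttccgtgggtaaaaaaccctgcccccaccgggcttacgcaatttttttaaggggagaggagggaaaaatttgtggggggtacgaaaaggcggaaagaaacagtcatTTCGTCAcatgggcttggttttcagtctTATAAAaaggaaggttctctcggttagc
PTGES, chr9:129753048-129753292, minus strand: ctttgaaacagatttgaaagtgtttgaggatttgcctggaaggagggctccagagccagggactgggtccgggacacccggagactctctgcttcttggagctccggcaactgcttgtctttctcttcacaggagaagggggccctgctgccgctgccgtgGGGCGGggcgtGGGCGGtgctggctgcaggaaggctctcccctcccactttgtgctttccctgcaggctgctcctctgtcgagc
The PTGS2 window holds a TATA match, present in 10.7% of 35116 RefSeq windows of 250 bases, and the CRE variant, present in 0.814% of them. How the CRE variant was chosen for the search is not given, so its low share does not show that the PTGS2 match is unusual. PTGFR has 1 GC box match and PTGES has 2, and 42.6% of the windows hold at least 1. The FOXO letters occur in 2.98% of all windows and in none of these 3, which says only that those letters are not in these stretches.

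The libraries held 120177015 to 162755457 estimated read pairs. On a principal component with 14.4% of the variance, replicate 2 of the KI DMSO group scored 54.1, against 14.1 and 17.1 for the other 2 replicates of that group. Replicate 3 of the KI BYL719 group stood apart by 2 fibroblast collagen genes: COL1A2 was at 4.33 CPM (counts scaled to a common library total) there and at 0.0571 to 0.306 CPM in the other 11 libraries, and COL3A1 was at 2.12 CPM there and at no more than 0.157 CPM in the others. All 10 epithelial and basal markers averaged at least 1 CPM in each of the 4 groups, and their sums were 7220 to 7428 CPM in KI BYL719, 7270 to 7347 CPM in KI DMSO, 8186 to 8629 CPM in parental BYL719 and 8366 to 8626 CPM in parental DMSO libraries. Under BYL719, 5 of them rose and 2 fell in KI cells, beside 28.3% of all tested genes called. In parental cells 1 rose, beside 1.43% of all tested genes called. That gene was TP63, which rose in both lines. Between lines in DMSO, 1 was higher (KRT14) and 7 were lower in KI cells, where 34.2% of all tested genes passed in either direction. KRT14 was higher, and CDH1, TP63 and TRIM29 were lower, by at least 1.5-fold both in DMSO and under BYL719. TP63 had 30.4, 23.1 and 29.6 CPM in KI DMSO libraries, against 75.9, 78.3 and 82.2 CPM in parental DMSO libraries. Of the 9 fibroblast markers, 4 rose under BYL719 in KI cells, beside 15.1% of all tested genes that rose. COL1A2 was among them, at 0.154, 0.0686 and 4.33 CPM in KI BYL719 libraries, so its rise rests on replicate 3. LUM was another, at 13, 18 and 24 counts against 3, 4 and 5 counts in KI DMSO libraries. The 9 markers summed to 184.7 to 223.5 CPM in KI BYL719, 115.7 to 117.7 CPM in KI DMSO, 66.8 to 70.9 CPM in parental BYL719 and 59.55 to 61.2 CPM in parental DMSO libraries. DCN made most of that difference, since the sums without it were 61.5 to 75.8 CPM, 61.7 to 64.4 CPM, 56.75 to 60.1 CPM and 54.6 to 57.0 CPM in the same groups. The full fibroblast sum was higher under BYL719 in each line, as were PTGFR and HPGD. Its order of the 4 groups was that of PTGFR. HPGD had another order, with parental BYL719 libraries above KI DMSO libraries. The haematopoietic sum lay between 27.2 and 32.9 CPM in all libraries, with GP9 at 0 counts in each and PTPRC at no more than 10 counts. In each group, however, 3 of the 10 haematopoietic markers averaged at least 1 CPM. CSF1R was at 5.88 to 12.8 CPM over the libraries. Between lines 1 of 5 tested was higher and 1, CSF1R, was lower in KI cells, both in DMSO and under BYL719. All tested genes were called at 34.2% in DMSO and 22.3% under BYL719. The 6 endothelial markers summed to 2.77 to 3.04 CPM in KI BYL719, 1.22 to 1.88 CPM in KI DMSO, 2.48 to 2.70 CPM in parental BYL719 and 1.585 to 1.70 CPM in parental DMSO libraries, with CDH5 at no more than 1 count in a library. KDR, one of them, rose under BYL719 in both lines, as HPGD did. The part of these marker changes in the members' changes was not tested. Genotype is taken from the labels, since gene totals do not show a base change.

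Per length, the enzymes spanned a wide range of RNA abundance. In KI cells under BYL719, PTGES3 was at 419 ± 22.6 TPM (a level scaled by transcript length and to a common total), PTGES at 141 ± 9.19 TPM and PTGES2 at 48.6 ± 2.25 TPM (SD, n = 3). The other members were near the bottom of the scale: HPGD was at 5.76 ± 0.376 TPM, PTGS1 at 3.87 ± 0.251 TPM, PTGFR at 1.56 ± 0.17 TPM and PTGS2 at 1.42 ± 0.106 TPM in the same libraries. PTGER4 was at 0.726 ± 0.0545 TPM and PTGER2 at 0.549 ± 0.0785 TPM there. The prostaglandin E synthases were thus far more abundant than the cyclooxygenases that feed them in every group. The plot of the 9 genes by library shows that neighbouring groups did not overlap for PTGFR, HPGD and PTGER4. The share of all genes with all 4 groups apart was not counted, so nothing is read from how many members did this.

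**Figure D1:**
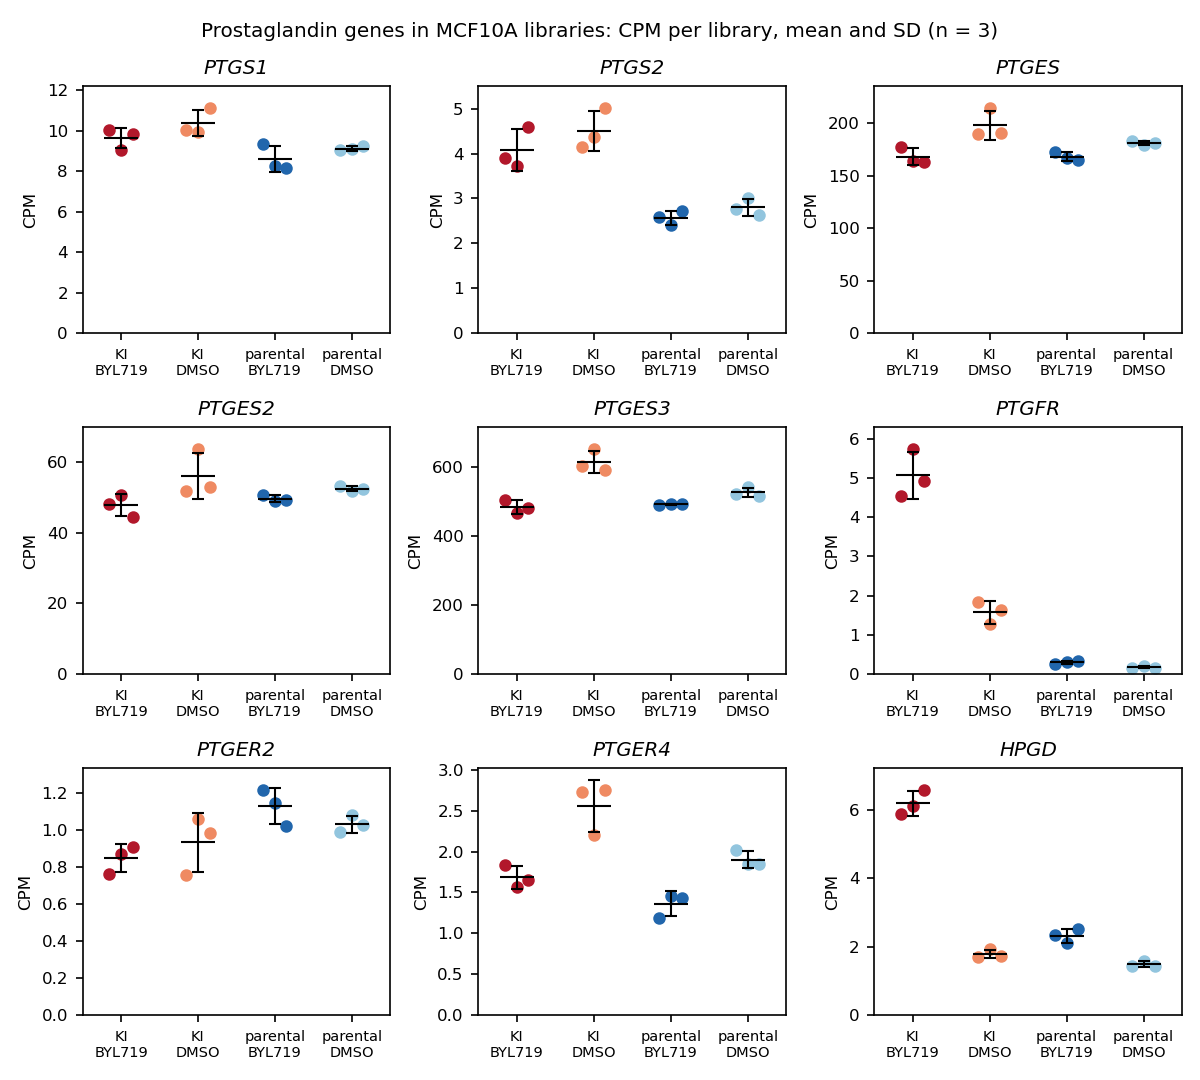
CPM (counts scaled to a common library total, y axis, from 0) of the 9 prostaglandin genes in each of 12 MCF10A libraries by group (x axis). Points are libraries and bars are the mean and SD of n = 3. PTGFR and HPGD are highest in KI cells under BYL719, at 4.53 to 5.72 CPM and 5.88 to 6.58 CPM, and the 3 synthases PTGES, PTGES2 and PTGES3 are highest in KI cells in DMSO.

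All 9 members passed the low-count filter, and 6 of 9 changed under BYL719 in KI cells, where 28.3% of the 21079 tested genes were called. PTGFR and HPGD rose, beside 15.1% of all genes that rose, and PTGES, PTGES2, PTGES3 and PTGER4 fell, beside 13.2% that fell. The members' median log2 difference was -0.15, against 0.02 over all tested genes. In parental cells 1 of 9 was called, HPGD, beside 1.43% of all genes, and the median was -0.09 against 0.01. The difference of the response between lines, the interaction, was called for 1 of 9, HPGD, beside 2.87% of all genes.

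The same 6 genes separated the BYL719 from the DMSO libraries in both lines, with no overlap of the CPM values. PTGFR and HPGD were higher in all 3 BYL719 libraries of each line, and PTGES, PTGES2, PTGES3 and PTGER4 were lower in all 3. Groups of 3 libraries failed to overlap, in either direction, for 38.2% of all genes in KI cells and for 31.5% in parental cells. The share of all genes apart in both lines in the same direction was not counted. Nothing is therefore read from the match between lines. Fitted on the parental libraries alone, the parental count was 6 of 9, those same genes, beside 17.3% of all genes in that fit. Fitted on the KI libraries alone, the KI count was 4 of 9 (PTGFR and HPGD rose, PTGES3 and PTGER4 fell), beside 13.1% of all genes. Fitted line by line, then, the parental cells had the higher count, of members and of all genes, whereas the fit over 12 libraries gave the KI cells the higher one. Without replicate 2 of KI DMSO the parental count was 3 of 9 (PTGFR, PTGER4 and HPGD) beside 9.17%. In KI cells 6 of 9 were called without that replicate, beside 32.4% of all genes.

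**Figure D2:**
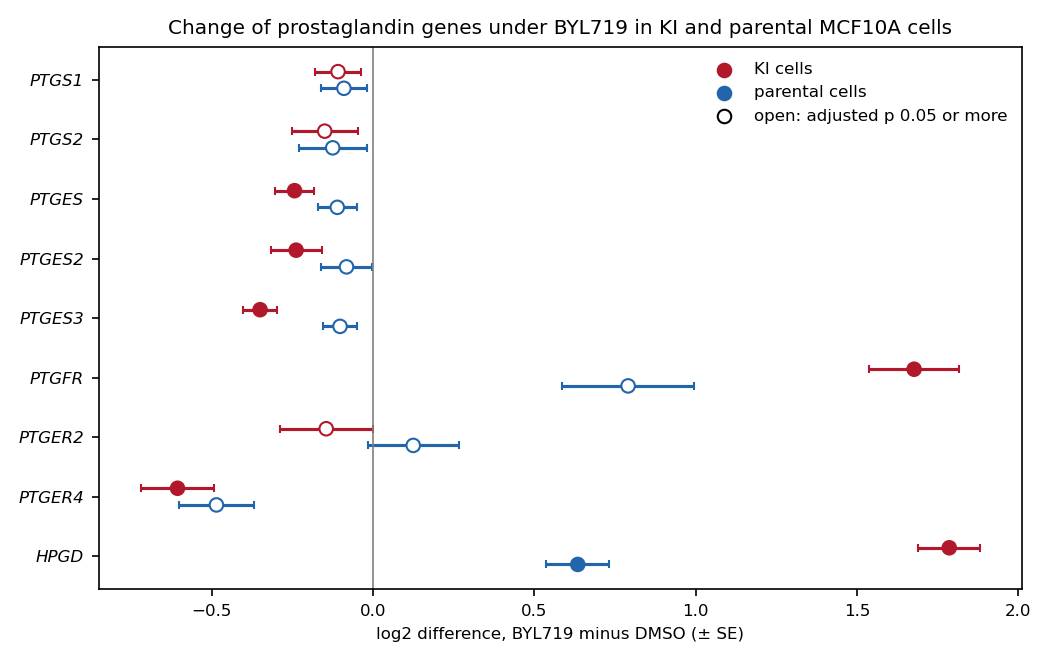
log2 difference BYL719 minus DMSO (x axis) with its standard error for the 9 genes in KI cells (red) and parental cells (blue), from the edgeR fit over 12 libraries. Filled points passed an adjusted p of 0.05. PTGFR and HPGD rose by 1.68 and 1.79 on the log2 scale in KI cells, and the other 7 genes were at or below -0.11 there.

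PTGFR encodes the FP receptor for PGF2alpha and lies at chr1:78490974-78540701 on the plus strand. It had 4.53, 5.72 and 4.93 CPM in KI cells under BYL719, against 1.84, 1.27 and 1.62 CPM in KI cells in DMSO. It had 0.258, 0.298 and 0.336 CPM in parental cells under BYL719, against 0.154, 0.2 and 0.163 CPM in parental cells in DMSO. The 4 groups stood in that order with no overlap between neighbours. The counts behind these values were 618 to 751 in KI BYL719 libraries and 166 to 253 in KI DMSO libraries, but 31 to 45 in parental BYL719 libraries and 20 to 27 in parental DMSO libraries.

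Under BYL719 PTGFR rose 3.2-fold in KI cells (log2 1.68 ± 0.14 SE, edgeR adjusted p = 4.98e-06) and was higher in 3 of 3 libraries. Without replicate 2 of KI DMSO the log2 change was 1.54 (edgeR adjusted p = 2.97e-07), and without replicate 3 of KI BYL719 it was 1.695 (edgeR adjusted p = 4.82e-05). In bulk RNA such a change cannot be divided between more cells with the transcript and more transcript per cell. In parental cells the log2 difference was 0.79 ± 0.20 SE, which missed the threshold in edgeR (adjusted p = 0.0927) and passed in DESeq2 (adjusted p = 0.0388) and without replicate 2 of KI DMSO (adjusted p = 0.0145). The responses of the 2 lines differed by 0.89 ± 0.25 SE on the log2 scale, KI minus parental, which was not called in edgeR (adjusted p = 0.088). It was called by DESeq2 (adjusted p = 0.0451) and without replicate 1 of KI DMSO (adjusted p = 0.0457), over a range of 0.0451 to 0.298 in the 17 alternatives run. As a description of the contrast that chose it, PTGFR was 17.2-fold higher in KI than in parental cells under BYL719 (log2 4.11 ± 0.17 SE) and 9.32-fold higher in DMSO (log2 3.22 ± 0.18 SE).

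PTGER4 and PTGER2 encode EP4 and EP2, the Gs-coupled receptors of PGE2. PTGER4 (chr5:40679915-40746800, plus strand) had 1.83, 1.56 and 1.66 CPM in KI cells under BYL719, against 2.73, 2.20 and 2.75 CPM in KI cells in DMSO. It had 1.19, 1.46 and 1.44 CPM in parental cells under BYL719, against 2.02, 1.84 and 1.84 CPM in parental cells in DMSO. Both lines thus had less PTGER4 under the inhibitor, the opposite of PTGFR. In KI cells PTGER4 fell by 0.61 ± 0.11 SE on the log2 scale (edgeR adjusted p = 0.00194). The log2 difference was -0.71 without replicate 2 of KI DMSO and -0.59 without replicate 3 of KI BYL719 (edgeR adjusted p = 0.000226 and 0.0103). In parental cells the log2 difference was -0.49 ± 0.12 SE with an edgeR adjusted p of 0.0676, and DESeq2 gave 0.00692.

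The PTGER4 responses of the 2 lines differed by -0.12 ± 0.16 SE on the log2 scale (edgeR adjusted p = 0.745), so no difference between lines was detectable. KI cells had more PTGER4 than parental cells by a log2 difference of 0.33 ± 0.12 SE under BYL719 and 0.45 ± 0.11 SE in DMSO, a description with no test. PTGER2 (chr14:52314312-52328598) had 0.763, 0.869 and 0.912 CPM in KI BYL719, 0.757, 1.06 and 0.985 CPM in KI DMSO, 1.215, 1.15 and 1.02 CPM in parental BYL719, and 0.989, 1.08 and 1.03 CPM in parental DMSO libraries. Its neighbouring groups all overlapped, and its log2 differences under BYL719 were -0.15 ± 0.14 SE in KI cells (edgeR adjusted p = 0.491) and 0.12 ± 0.14 SE in parental cells (edgeR adjusted p = 0.862). The 2 PGE2 receptors therefore did not share a called response.

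HPGD, the dehydrogenase that starts prostaglandin breakdown, lies at chr4:174490175-174522893. It had 5.88, 6.13 and 6.58 CPM in KI cells under BYL719, against 1.70, 1.93 and 1.74 CPM in KI cells in DMSO. It had 2.33, 2.11 and 2.52 CPM in parental cells under BYL719, against 1.45, 1.58 and 1.44 CPM in parental cells in DMSO. Both treated groups were above both DMSO groups with no overlap. HPGD rose 3.45-fold in KI cells (log2 1.79 ± 0.10 SE, edgeR adjusted p = 1.49e-07). Its log2 change was 1.84 without replicate 2 of KI DMSO and 1.74 without replicate 3 of KI BYL719 (edgeR adjusted p = 3.64e-09 and 2.44e-06). It rose 1.55-fold in parental cells (log2 0.63 ± 0.10 SE, edgeR adjusted p = 0.00801), in 3 of 3 libraries each.

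The HPGD response was larger in KI cells than in parental cells by 1.15 ± 0.14 SE on the log2 scale (edgeR adjusted p = 0.000894), and this held in each of the 17 alternatives run, including without replicate 2 of KI DMSO and without replicate 3 of KI BYL719. In DMSO the lines lay close together, 0.29 ± 0.10 SE apart on the log2 scale, while under BYL719 KI cells were 1.44 ± 0.09 SE above parental cells, both given with no test. The parental rise lost its call without parental BYL719 replicate 3 (adjusted p = 0.0565), without parental DMSO replicate 1 (adjusted p = 0.072) and with effective-length offsets (adjusted p = 0.102).

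The prostaglandin E synthases fell together in KI cells. PTGES encodes the inducible membrane synthase that works with PTGS2, PTGES2 a second membrane-associated synthase, and PTGES3 the cytosolic synthase that is also the HSP90 co-chaperone p23. PTGES (chr9:129738349-129753042) had 177, 164 and 162.7 CPM in KI cells under BYL719, against 189.5, 214 and 191 CPM in KI cells in DMSO. It had 173, 167 and 165 CPM in parental cells under BYL719, against 183, 179 and 181 CPM in parental cells in DMSO. The 6 treated libraries lay below the 6 DMSO libraries, and in KI cells PTGES fell by 0.24 ± 0.06 SE on the log2 scale (edgeR adjusted p = 0.00967).

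PTGES3 (chr12:56663349-56688284), the most abundant member, had 505, 467 and 481 CPM in KI cells under BYL719, against 602, 651.5 and 591 CPM in KI cells in DMSO. It had 491, 493 and 495 CPM in parental cells under BYL719, against 523, 542 and 518 CPM in parental cells in DMSO. It fell by 0.35 ± 0.05 SE on the log2 scale in KI cells (edgeR adjusted p = 0.000401). The high KI DMSO values stood out from the other 3 groups, which lay within 467 to 542 CPM. PTGES2 (chr9:128120693-128128440) had 48.3, 50.6 and 44.6 CPM in KI BYL719, 51.75, 63.6 and 53.05 CPM in KI DMSO, 50.9, 48.9 and 49.3 CPM in parental BYL719, and 53.3, 51.8 and 52.3 CPM in parental DMSO libraries.

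PTGES2 fell by 0.24 ± 0.08 SE on the log2 scale in KI cells (edgeR adjusted p = 0.0402), a call lost in 7 of the 18 alternatives run: a fit on the KI libraries alone (adjusted p = 0.177), effective-length offsets (adjusted p = 0.0659), and 5 fits without 1 library (replicate 1 or 3 of KI BYL719, 2 or 3 of parental BYL719, or 3 of parental DMSO, adjusted p = 0.0508 to 0.153). The fit on the KI libraries alone also ended the PTGES call (adjusted p = 0.093). By CPM, replicate 2 of KI DMSO, which stands apart, was the highest library of all 12 for each of the 3 synthases. By TPM it was not the highest for PTGES3, at 473 TPM against 523 and 510 TPM in replicates 1 and 3. Without replicate 2 of KI DMSO the log2 differences in KI cells were -0.18 for PTGES, -0.14 for PTGES2 and -0.31 for PTGES3, with edgeR adjusted p of 0.00197, 0.0228 and 9.59e-06. Without replicate 3 of KI BYL719 they were -0.22 for PTGES and -0.35 for PTGES3 (edgeR adjusted p = 0.0461 and 0.00299). In parental cells the 3 log2 differences were -0.11 ± 0.06 SE for PTGES, -0.08 ± 0.08 SE for PTGES2 and -0.10 ± 0.05 SE for PTGES3, none called (edgeR adjusted p = 0.497 to 0.813).

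The difference of response between lines was -0.25 ± 0.07 SE on the log2 scale for PTGES3, with an adjusted p of 0.107 in edgeR, 0.0317 in DESeq2 and 0.02 without replicate 2 of KI DMSO. For PTGES it was -0.13 ± 0.08 SE and for PTGES2 -0.16 ± 0.11 SE, neither called (edgeR adjusted p = 0.457 and 0.508). As a description, KI minus parental log2 differences under BYL719 were 0.02 ± 0.06 SE for PTGES, -0.03 ± 0.08 SE for PTGES2 and 0.0016 ± 0.05 SE for PTGES3. In DMSO they were 0.16 ± 0.06 SE, 0.13 ± 0.08 SE and 0.25 ± 0.05 SE in the same order. The KI DMSO libraries include the one that stands apart.

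The cyclooxygenases, which commit arachidonic acid to prostaglandins, were not called under BYL719. PTGS2 (COX-2, the inducible form, chr1:186671791-186680423) had 3.90, 3.72 and 4.60 CPM in KI cells under BYL719, against 4.15, 4.36 and 5.00 CPM in KI cells in DMSO. It had 2.59, 2.41 and 2.72 CPM in parental cells under BYL719, against 2.75, 3.01 and 2.62 CPM in parental cells in DMSO. All 6 KI libraries were above all 6 parental libraries, whereas treated and DMSO libraries of a line overlapped. The log2 differences under BYL719 were -0.15 ± 0.10 SE in KI cells (edgeR adjusted p = 0.304) and -0.13 ± 0.11 SE in parental cells (edgeR adjusted p = 0.767). KI cells were above parental cells by a log2 difference of 0.69 ± 0.10 SE under BYL719 and 0.71 ± 0.10 SE in DMSO, with no test.

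PTGS1 (COX-1, the constitutive form, chr9:122370533-122395703) had 10.0, 9.06 and 9.86 CPM in KI BYL719, 10.1, 9.95 and 11.1 CPM in KI DMSO, 9.35, 8.26 and 8.19 CPM in parental BYL719, and 9.04, 9.09 and 9.25 CPM in parental DMSO libraries. Neighbouring groups overlapped throughout. Its log2 differences under BYL719 were -0.11 ± 0.07 SE in KI cells (edgeR adjusted p = 0.278) and -0.09 ± 0.07 SE in parental cells (edgeR adjusted p = 0.738). Over all 12 libraries PTGS1 stayed within 8.19 to 11.1 CPM.

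**Figure D3:**
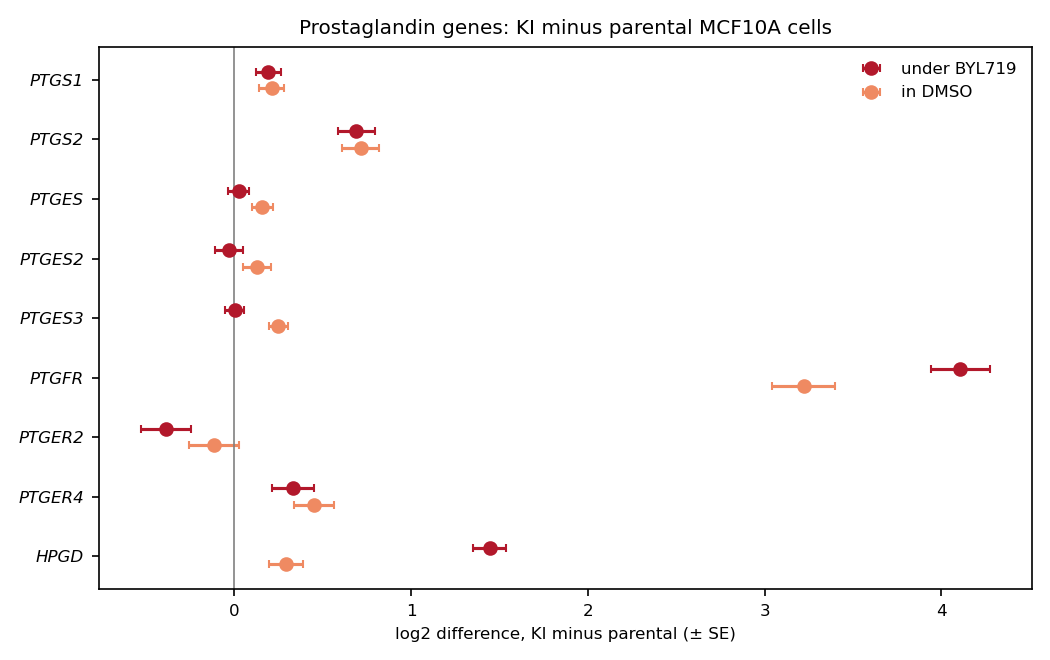
log2 difference KI minus parental (x axis) with its standard error for the 9 genes under BYL719 (red) and in DMSO (orange), shown as a description because this contrast chose the genes. PTGFR stands at 4.11 under BYL719 and 3.22 in DMSO, PTGS2 near 0.7 in both, and HPGD at 1.44 and 0.29.

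Between lines, 5 of 9 members did not overlap under BYL719, where 46% of all genes did not, and 7 of 9 did not overlap in DMSO, where 45.7% did not. These counts come from the contrast behind the choice, and nothing is read from them. Under BYL719, PTGS2, PTGFR, PTGER4 and HPGD were higher in all KI libraries and PTGER2 was lower in all. In DMSO the 7 members were PTGS1, PTGS2, PTGES, PTGES3, PTGFR, PTGER4 and HPGD, each higher in all KI libraries.

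Most members were read from 1 dominant transcript, so their gene totals describe mainly 1 product. As a share of the gene's TPM over the 12 libraries, PTGES-201 averaged 97% and PTGER4-201 averaged 93.2%, PTGS2-201 averaged 93% and PTGER2-201 averaged 91.6%. PTGES3-201 averaged 85.9% and PTGES2-202 averaged 82.3%. PTGS1 was split between the coding PTGS1-202 at 38.9% (36.4% to 41.9%) and PTGS1-211, annotated as a target of nonsense-mediated decay, at 34.9% (27.1% to 43.2%).

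PTGFR and HPGD, the 2 members that rose, had no dominant transcript. In KI cells under BYL719, PTGFR-202 held 36.5% to 47.5% of the PTGFR TPM and PTGFR-203 held 29.7% to 41.7%. In parental libraries, with 20 to 45 counts, single PTGFR transcripts ranged over 0% to 100%, and no order of transcripts can be read there. HPGD-202, a coding form, averaged 28.5% of the HPGD TPM in KI BYL719 and 36.1% in KI DMSO libraries, with a range of 14.9% to 62.4% in KI DMSO. The KI DMSO range of this transcript thus spanned that of KI BYL719, 25.6% to 30.5%. HPGD-212 held 6.98% to 9.77% in KI BYL719 and 0% to 3.02% in KI DMSO libraries, with no overlap, and was not tested.

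The wider pathway was taken as 6 lists with 93 gene symbols, some of them alternative names of the same gene, and 74 genes were tested. Under BYL719, 23 of 74 were called in KI cells (15 rose and 8 fell), a share of 31.1% beside 28.3% of all genes, and the median log2 difference was 0.03 against 0.02. In parental cells 3 of 74 rose and none fell, 4.05% beside 1.43% of all genes. A gene is named below when it passed the test with at least a 1.5-fold change in some comparison. Other genes are named after their values were seen, only where they make up a count of 5 or fewer.

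The other prostanoid enzymes moved in both directions under BYL719. Of 11 tested, 5 rose in KI cells (AKR1C1, AKR1C2, AKR1C3, PTGR2 and ZADH2) and 4 fell (TBXAS1, CBR1, PRXL2B and PTGR1). That is 81.8% called, beside 28.3% of all genes, with a median log2 difference of 0.29 against 0.02 over all genes. AKR1C3 makes PGF2alpha and related products, and AKR1C2 is its near relative. AKR1C2 had 653, 686 and 768 CPM in KI cells under BYL719, against 432, 435 and 419 CPM in KI cells in DMSO (log2 0.71 ± 0.06 SE, edgeR adjusted p = 6.2e-06). It had 329, 353 and 363 CPM in parental cells under BYL719, against 220, 231 and 223 CPM in parental cells in DMSO (log2 0.63 ± 0.06 SE, edgeR adjusted p = 0.00038). AKR1C2 thus rose in both lines, but the AKR1C genes share sequence and the division of reads among them is uncertain.

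AKR1C3 also rose in both lines, by log2 0.44 ± 0.08 SE in KI cells (edgeR adjusted p = 0.00126) and 0.39 ± 0.08 SE in parental cells (edgeR adjusted p = 0.0307). The parental AKR1C3 call was lost with effective-length offsets (adjusted p = 0.0853) and in 8 of the 12 fits without 1 library, over which the adjusted p was 6.46e-06 to 0.21. TBXAS1, thromboxane synthase, had 1.66, 1.80 and 1.61 CPM in KI cells under BYL719, against 2.41, 2.78 and 2.30 CPM in KI cells in DMSO (log2 -0.57 ± 0.12 SE, edgeR adjusted p = 0.00299). Between lines this list moved 1 way: 7 of 11 were higher in KI cells under BYL719 and 7 of 11 in DMSO, with none lower, beside 22.3% and 34.2% of all genes called in either direction. AKR1B1, another PGF synthase, was higher in KI than in parental cells by log2 0.96 ± 0.07 SE under BYL719 (edgeR adjusted p = 4.09e-07) and 1.07 ± 0.07 SE in DMSO (edgeR adjusted p = 1.4e-07). PTGR1, a reductase that acts after HPGD, was higher by log2 0.77 ± 0.07 SE and 1.04 ± 0.07 SE in the same conditions (edgeR adjusted p = 6.43e-06 and 4.07e-07).

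Of 9 other prostanoid receptors and transporters, 5 were tested and none was called under BYL719 in either line, with 1 at an unadjusted p under 0.05 in KI cells and 0 in parental cells by edgeR. PTGIR, the prostacyclin receptor, had 9, 14 and 17 counts in KI BYL719 and 17, 25 and 13 counts in KI DMSO libraries. Parental libraries had 0, 0 and 1 counts under BYL719 and 1, 1 and 0 counts in DMSO, so no fold is given. SLCO2A1, the prostaglandin uptake transporter, was higher in KI than in parental cells by log2 1.30 ± 0.18 SE under BYL719 (edgeR adjusted p = 0.000161) and 1.201 ± 0.18 SE in DMSO (edgeR adjusted p = 0.000211).

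The next list held 17 tested genes that release arachidonic acid or its precursors or, for ANXA1, restrain that release. Under BYL719, 3 of the 17 rose in KI cells (PLA2G6, PNPLA2 and DAGLB). PLA2G12A fell. That is 23.5% called, below the 28.3% of all genes, with a median log2 difference of -0.03. None was called in parental cells, beside 1.43% of all genes, and 2 had an unadjusted p under 0.05 there by edgeR. PLA2G6, a calcium-independent phospholipase, had 4.42, 6.44 and 6.43 CPM in KI cells under BYL719, against 3.75, 3.27 and 4.19 CPM in KI cells in DMSO (log2 0.62 ± 0.13 SE, edgeR adjusted p = 0.0042). PLA2G2A, a secreted phospholipase, had 8, 11 and 10 counts in KI BYL719 and 16, 11 and 6 counts in KI DMSO libraries, against 0, 1 and 0 counts in parental BYL719 and 1, 0 and 0 counts in parental DMSO libraries. It is thus another low gene seen almost wholly in the KI line.

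None of the 10 tested lipoxygenase and leukotriene genes was called under BYL719 by edgeR, with 2 at an unadjusted p under 0.05 in KI cells and 1 in parental cells. Between lines 2 were higher (ALOX5AP and ALOX15B) and 4 lower (ALOXE3, LTC4S, LTA4H and LTB4R2) in KI cells, both under BYL719 and in DMSO. That is 60% called in each condition, beside 22.3% of all genes under BYL719 and 34.2% in DMSO. ALOX5AP, which presents arachidonic acid to 5-lipoxygenase, was higher by log2 1.45 ± 0.10 SE under BYL719 (edgeR adjusted p = 2.91e-07) and 1.41 ± 0.10 SE in DMSO (edgeR adjusted p = 3.16e-07). LTC4S, which makes leukotriene C4, was lower, at log2 -0.90 ± 0.21 SE under BYL719 (edgeR adjusted p = 0.00893) and -1.32 ± 0.22 SE in DMSO (edgeR adjusted p = 0.000559).

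Downstream of the receptors, 3 of 21 Gs and Gq transducers were called under BYL719 in KI cells (ADCY6 and ARRB1 rose, PLCB2 fell). That is 14.3%, below the 28.3% of all genes. In parental cells none was called, beside 1.43% of all genes, and 2 had an unadjusted p under 0.05 by edgeR. PLCB2, a phospholipase C that Gq can activate, had 0.807, 0.77 and 0.708 CPM in KI cells under BYL719, against 1.57, 1.58 and 1.69 CPM in KI cells in DMSO (log2 -1.09 ± 0.14 SE, edgeR adjusted p = 0.000124). PLCB4, of the same family, was higher in KI than in parental cells by log2 1.19 ± 0.09 SE under BYL719 (edgeR adjusted p = 1.22e-06). ADCY1, an adenylyl cyclase, had 3, 3 and 1 counts in KI BYL719 and 1, 0 and 1 counts in KI DMSO libraries, against 25, 30 and 40 counts in parental BYL719 and 30, 31 and 30 counts in parental DMSO libraries.

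The last list held 10 tested genes linked to cyclic AMP and CREB. All but CRTC2, which acts with CREB, are induced early or damp the signal. In KI cells under BYL719, 5 rose (NR4A2, SIK1, DUSP1, CRTC2 and PDE4D) and 2 fell (PDE4B and CREM). That is 70% called, beside 28.3% of all genes, with a median log2 difference of 0.25 against 0.02 over all genes. In parental cells 1 of 10 rose, DUSP1 (edgeR adjusted p = 0.0103), beside 1.43% of all genes called. The DUSP1 call was lost in 5 of the 12 fits without 1 library (edgeR adjusted p = 3.57e-05 to 0.0954). NR4A2, an immediate early nuclear receptor, had 5.30, 5.71 and 5.04 CPM in KI cells under BYL719, against 2.62, 3.13 and 2.92 CPM in KI cells in DMSO (log2 0.88 ± 0.10 SE, edgeR adjusted p = 6.75e-05). SIK1, a CREB-induced kinase, had 25.8, 25.5 and 26 CPM in KI cells under BYL719, against 17.6, 13.1 and 17.4 CPM in KI cells in DMSO (log2 0.68 ± 0.08 SE, edgeR adjusted p = 8.59e-05). PDE4B, a phosphodiesterase that breaks down cyclic AMP, had 0.198, 0.259 and 0.245 CPM in KI cells under BYL719, against 0.706, 0.564 and 0.531 CPM in KI cells in DMSO (log2 -1.36 ± 0.29 SE, edgeR adjusted p = 0.00449). The list moved in both directions, and its members answer many signals besides PGE2.

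**Figure D4:**
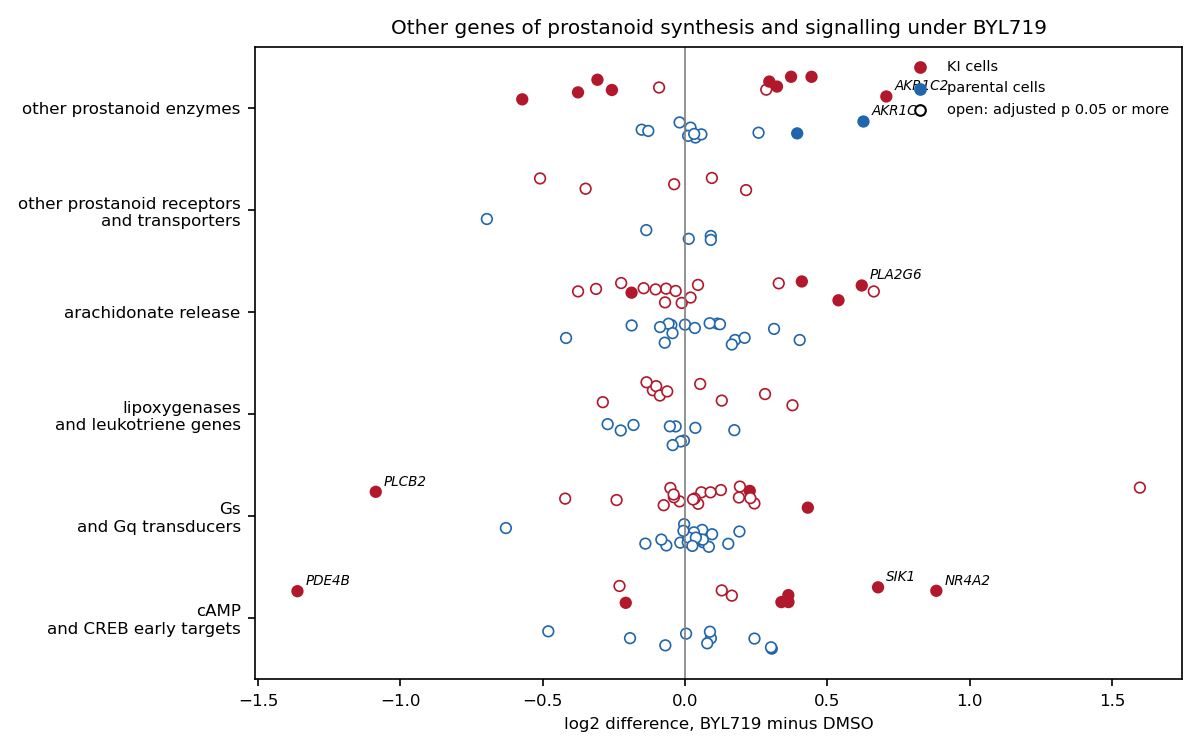
log2 difference BYL719 minus DMSO (x axis) of 74 other genes of prostanoid synthesis and signalling in 6 lists (rows), in KI cells (red) and parental cells (blue), 1 point per gene with a small vertical scatter for legibility. Filled points passed an adjusted p of 0.05 and named points also passed 1.5-fold: 23 points are filled in KI cells and 3 in parental cells.

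Some genes followed members closely across the 12 libraries, measured as Pearson's r of log2(CPM + 0.5) and given as a description, since the libraries share 4 groups. For PTGFR they were GPC6 (r = 0.9986), IL7R (r = 0.9972), PDE7B (r = 0.9963), CTSA (r = 0.9928) and GLIS1 (r = 0.9895). IL7R, the interleukin-7 receptor chain, averaged 28.7 ± 0.114 CPM in KI BYL719, 9.37 ± 1.31 CPM in KI DMSO, 3.15 ± 0.394 CPM in parental BYL719 and 2.57 ± 0.136 CPM in parental DMSO libraries (SD, n = 3). This is the group order of PTGFR. For HPGD they were CXCR4 (r = 0.9845), RERG (r = 0.9845) and OPTN (r = 0.9842), and CXCR4, a chemokine receptor, averaged 1.201 ± 0.246 CPM, 0.248 ± 0.0452 CPM, 0.353 ± 0.0805 CPM and 0.163 ± 0.0344 CPM in the same groups. For PTGER4 they were MYOSLID (r = 0.9807), COA7 (r = 0.9769) and TIMM10B (r = 0.9706), and for PTGS2 SPINK6 (r = 0.9806), JKAMP (r = 0.9746) and AC010980.1 (r = 0.9703).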

How the data were processed

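RNA from 12 MCF10A libraries was read as 150 nt pairs. The authors' deposited tables give expected counts (estimated read pairs, not whole numbers) and TPM (length-scaled abundance with a fixed sum per library) for 207749 transcripts. Per the submitters' processing notes, Trim Galore 0.6.1, cutadapt, Salmon 1.2.1, DESeq2 1.28.1 and the build GRCh38 were used. No source used here gives RNA selection or strandedness, so reads of overlapping genes cannot be told apart: the v29 GENCODE annotation places TTC33 opposite PTGER4 and MGC27382 on the PTGFR strand.

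Deposited expected counts were summed by gene and rounded. CPM are these sums scaled to a common library total. In edgeR 4.0.16 (R 4.3.3) the 12 libraries were fitted by group (filterByExpr, TMM, robust quasi-likelihood, 8 residual degrees of freedom). Tests are two-sided, Benjamini-Hochberg adjusted over 21079 genes, and called under 0.05. SE is the log2 difference over the root of F. Scripts were tested on simulated data. Alternatives were DESeq2 1.42.0, RLE factors, no filter, effective-length offsets (the deposited lengths), fewer groups, a replicate block and leaving out each library. Named genes are the 9 members, list genes past 1.5-fold in a called comparison (at most 6 per list and comparison), and the 5 (PTGFR) or 3 (PTGS2, PTGER4, HPGD) genes of highest correlation. Members and lists were chosen with earlier results of these data known. Coordinates are RefSeq GRCh38.p14.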

Additional observations from a re-analysis of the deposited data

Results flagged for a closer look

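For HPGD, the BYL719 response differed between lines: the log2 change in KI cells exceeded that in parental cells by 1.15 (interaction term, edgeR adjusted p = 0.000894). The change was 1.79 in KI cells and 0.63 in parental cells, and HPGD was higher in 3 of 3 treated libraries of each line. Leaving out each library in turn gave a difference of 1.08 to 1.22, with adjusted p of 5.06e-05 to 0.00617.

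For SIK1, the response also differed between lines, by 0.59 on the log2 scale (interaction term, edgeR adjusted p = 0.0181). It was 0.68 ± 0.08 SE in KI cells and 0.09 ± 0.08 SE in parental cells (edgeR adjusted p = 0.803). The KI DMSO library that stands apart, replicate 2, had the lowest SIK1 level of all, 13.1 CPM, and without it the difference was 0.47 (adjusted p = 7.79e-05). The call was lost with effective-length offsets (0.92, adjusted p = 0.144) and in 7 of the 12 fits that left out 1 library. Over those 12 fits the adjusted p was 7.79e-05 to 0.0599. The part of that library in either gene's difference was not tested beyond these fits.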

How the results depend on the processing

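In KI cells, 4 members (2 rose, 2 fell) and 16 other pathway genes were called under BYL719 in a fit of the KI groups alone, against 6 and 23, and 5 to 6 members when single libraries were left out. In parental cells the main count of 1 became 3 with DESeq2, 0 with effective-length offsets and 6 in a fit of the parental groups alone, and was 0 to 3 over left-out libraries. For the difference of response between lines the count of 1 became 3 with DESeq2, and was 1 to 2 over left-out libraries. Other pathway genes called in parental cells numbered 6 with DESeq2 and 13 in the parental groups alone, against 3, and 1 to 9 over left-out libraries. Over left-out libraries they numbered 21 to 33 under BYL719 in KI cells, 23 to 44 for KI minus parental under BYL719 and 32 to 47 in DMSO. The cause of these shifts was not tested. The order of groups by mean CPM was kept for 7 of 9 members with TMM library sizes and for 7 to 9 over left-out libraries.

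Correlations of same-numbered deviations were -0.072 to 0.08 with a mean of 0.029, against a mean of -0.015 for other numbers. Of 12 libraries, 6 lay closest to their own number in each of the other 3 groups, all 4 of replicate 2 among them. Replicate numbers thus paired the samples weakly at most, and a weak pairing is not excluded. With a replicate block, 5818 genes were called in KI cells, 211 in parental cells and 443 for the difference, against 5964, 302 and 606, and no member's call changed. Among single-gene values, no tested value called in the main fit or in an alternative changed sign between them. In all, 48 lost and 14 gained a call, and 1 untested value moved beyond its spread. Values near 0 that were not called did change sign. Over left-out libraries the difference of response between lines was -0.076 to 0.028 for PTGS1 and -0.123 to 0.039 for PTGS2. PTGFR rests on 20 to 45 counts per parental library, which limits the precision of its parental change.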
